A study of Mus musculus with 8 samples.

Results

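Hox genes and the transcription factors that mark limb position were compared in posterior knee capsule between naive mice and mice whose knee was immobilised. Members were every gene whose symbol is Hox with a cluster letter a, b, c or d and a number, together with 10 factors chosen by name, namely Pitx1, Tbx4, Tbx5, Tbx15, Tbx18, Shox2, Meis1, Meis2, Lmx1b and Prrx1. This rule found 41 of the 16464 genes in the deposited table, 31 Hox genes and all 10 position genes. The other 8 Hox genes annotated in the mouse (Hoxb1, Hoxb13, Hoxc12, Hoxc13, Hoxd1, Hoxd11, Hoxd12 and Hoxd13) were not analysed here. Capsules came from wild-type male C57BL/6 mice that were 10 weeks old. The naive group held 4 libraries. The cast group held 4 libraries from mice casted at 8 weeks of age, with the knee held at 140 degrees during the 2 weeks that followed. No label ties a library to its own animal, so the p values speak only of spread among these libraries, which may be technical.

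Hox genes encode homeodomain transcription factors that lie in 4 chromosomal clusters, and their order along a cluster mirrors the order in which they are used along the body axis. Low paralog numbers act toward the head and high numbers toward the tail and the tips of the limbs: in the limb, Hox10 genes are known for the thigh and upper arm, Hox11 genes for the shank and forearm and Hox13 genes for the hand and foot. Connective tissue fibroblasts keep such positional expression into adult life. Pitx1 and Tbx4 are the classical hindlimb factors and Tbx5 the forelimb factor. Pbx and Meis proteins bind DNA together with Hox proteins.

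Values are normalised read counts. Recovered reads per library ranged from 5956148 to 7381255 except in naive replicate 4, which held 1503880, so that 1 read there is worth 0.647 against 0.133 to 0.165 elsewhere. That library also stood apart in tissue content. Its 12 skeletal muscle markers summed to 115. Naive replicates 1 to 3 had 1613 to 2880, and cast capsules had 16.6 to 395. Muscle RNA thus set naive replicates 1 to 3 apart, while naive replicate 4 lay within the cast range. Of the 12 muscle markers 5 fell and 0 rose. Other markers moved too: 7 of 7 erythroid markers rose, with sums of 1174 to 1773 in naive and 3940 to 19837 in cast libraries. Of 7 leukocyte markers 3 rose (sums 1340 to 3175 against 3221 to 5807), and of 6 fat markers Plin1, Lep and Pck1 fell (sums 2907 to 3353 against 1412 to 4078). The 10 fibroblast markers were all present and summed to 22940 to 41700 in naive and 25298 to 42602 in cast capsules. Lum and Pdpn of that list rose, with log2 fold changes of 3.22 and 0.99. The part of these shifts in the member results was not tested. Of 4 muscle stem cell markers, 1 was listed, at 0 in all 4 naive libraries. In bulk tissue, fewer cells of a type and less RNA per cell cannot be told apart.

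Only Tbx5 and Hoxd3 passed the test among the members, and both were lower after casting. Of 41 members, 40 passed the filter on low values, Hoxa13 being the exception. Of these 40, 2 fell, 0 rose and 38 did not pass (limma, Benjamini-Hochberg adjusted p at most 0.05 over 15120 genes). Of all genes tested, 12.0% were called, 6.51% higher and 5.46% lower. An unadjusted p under 0.05 was reached by 12 of 40 members and by 26.6% of all genes, so the members' count is near the background. On recovered reads, edgeR called 4 members (13.5% of all genes) and DESeq2 7 (18.2%). The median log2 fold change was -0.12 over 30 Hox genes and -0.22 over the 10 position genes, against 0.07 over all genes tested. The groups did not overlap in 10 members, 8 with cast lower and 2 with cast higher, which is 25.0% of those tested against 20.5% of all genes (9.39% with cast lower and 11.1% with cast higher). Without naive replicate 4, limma called 7 members (17.6% of all genes in that fit): Tbx5, Hoxd3, Hoxd4, Hoxc5, Shox2 and Prrx1 lower and Tbx18 higher. A muscle covariate was the mean log2(value + 1) of the 12 muscle markers in each library. With it, 9 members were called (26.5% of all genes): Hoxd8 and Tbx18 higher and Hoxa7, Hoxc6, Hoxd10, Hoxd3, Hoxd4, Pitx1 and Tbx5 lower. Array weights called 8 members (26.4%) and quantile normalisation 5 (11.9%).

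**Figure D1:**
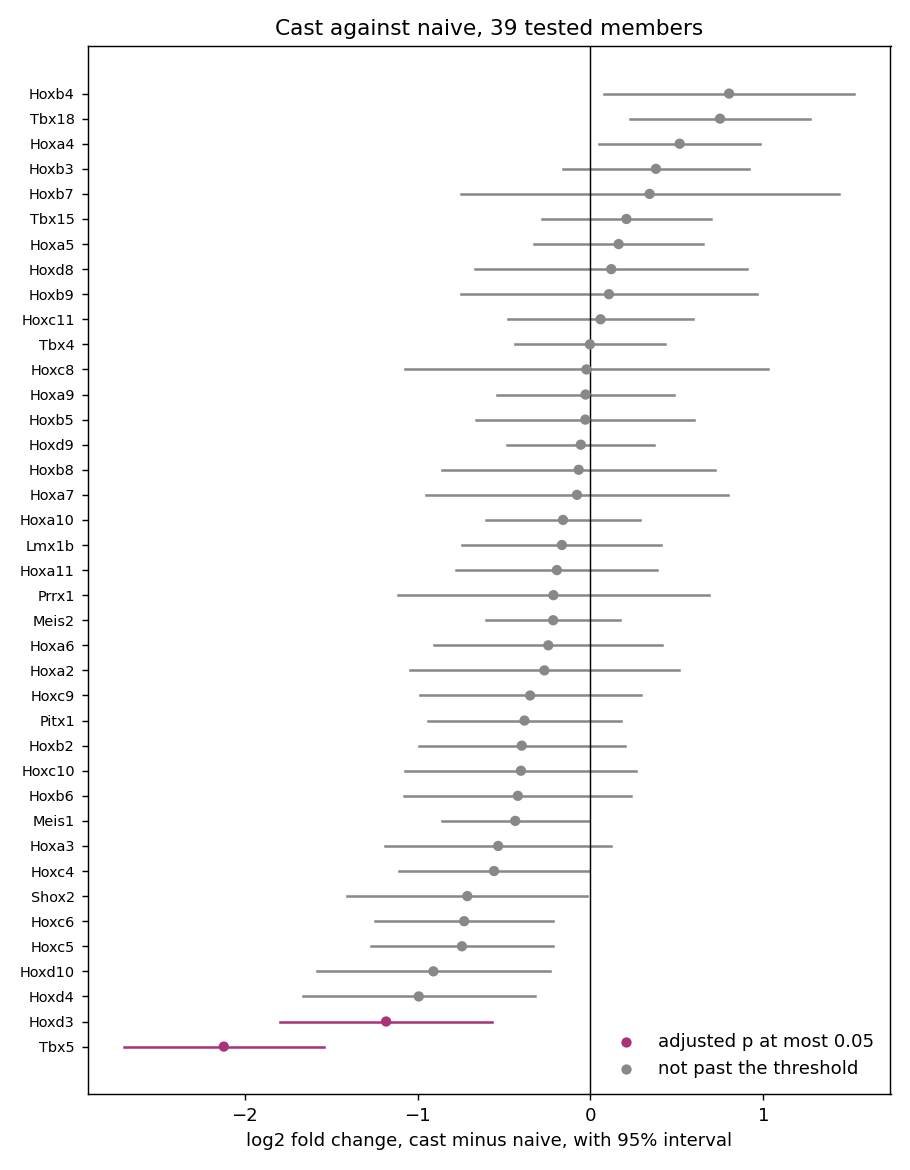
Log2 fold change of cast against naive capsules for 39 tested members, with the 95% interval from limma; each row is a gene and values left of 0 are lower after casting. Tbx5 at -2.12 and Hoxd3 at -1.18 are the members past the threshold.

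Tbx5, the T-box factor known for starting the forelimb, had the largest change of the 40 tested members. It read 28.5, 31.9, 19.5 and 30.4 in naive replicates 1 to 4 and 4.29, 8.24, 6.14 and 4.001 in cast replicates 1 to 4. The lowest naive library was thus more than double the highest cast library. The group means were 27.6 ± 5.57 and 5.67 ± 1.96 (SD, n = 4 each), from 552 naive and 156 cast reads. The log2 fold change was -2.12 (standard error 0.26, 95% interval -2.70 to -1.54, adjusted p = 0.00128 by limma), a 4.35-fold lower fitted level on the log2(value + 1) scale. Its call held in all 21 alternatives, with log2 fold changes between -2.58 and -1.61 and adjusted p values of at most 0.0106. Tbx5 lies on chromosome 5, 119832668 to 119885219, plus strand (GRCm38), and shares no exonic bases with another gene in GENCODE release M21.

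Tbx4, the close relative of Tbx5 that works in the hindlimb, was at one level in both groups to within the spread. It read 15.1, 14.8, 15.5 and 10.3 in naive and 13.8, 15.9, 12.95 and 12.5 in cast replicates 1 to 4. The groups overlapped, and the lowest value of all was that of naive replicate 4. The log2 fold change was -0.003 (95% interval -0.44 to 0.43, adjusted p = 0.993 by limma), so the interval is far from the change of Tbx5. Pitx1, the homeodomain factor upstream of Tbx4 in the hindlimb, read 12.96, 23.7, 18.5 and 26.5 in naive and 11.5, 15.4, 18.4 and 15.1 in cast replicates. These ranges overlapped too (log2 fold change -0.38, 95% interval -0.94 to 0.18, adjusted p = 0.374 by limma).

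Both hindlimb factors were therefore detected in all 8 libraries, and the forelimb factor stood beside them in naive capsules. Per kb of exon, the level of Tbx5 was 6.09, 6.83, 4.17 and 6.503 in naive replicates 1 to 4 and that of Tbx4 4.43, 4.36, 4.57 and 3.04. Tbx5 was thus above Tbx4 in naive replicates 1, 2 and 4 and below it in naive replicate 3. The ratio of Tbx5 to Tbx4 per kb was 1.498 ± 0.507 in naive capsules (SD, n = 4). In cast replicates 1 to 4 it was 0.225, 0.377, 0.345 and 0.232, so Tbx5 was the lower of the pair in each cast library. Pitx1 had 7.69 ± 2.25 per kb in naive and 5.69 ± 1.06 in cast capsules and exceeded Tbx4 in every library. Exon lengths are those of all annotated exons joined, which need not be the transcripts made in capsule.

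**Figure D2:**
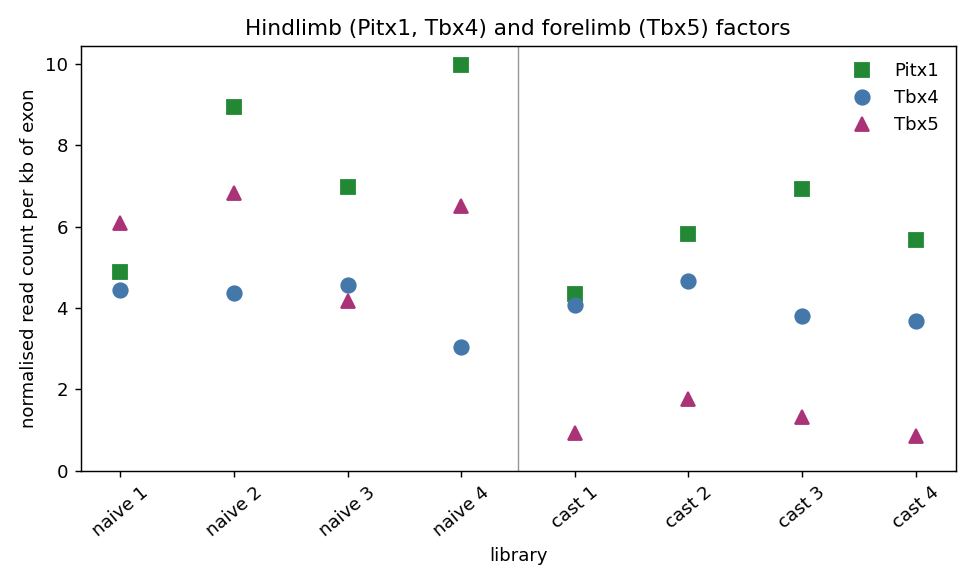
Normalised read count per kb of exon (vertical axis) of Pitx1, Tbx4 and Tbx5 in each of the 8 libraries (horizontal axis), 1 symbol per gene. Tbx5 lies at 4.17 to 6.83 in the naive libraries and at 0.856 to 1.76 in the cast libraries, where it is under both hindlimb factors.

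Among the factors of limb mesenchyme, Prrx1 and Tbx15 were the most abundant members. Prrx1, a homeodomain factor of limb bud mesenchyme and fibroblasts, read 370.4, 429.6, 323 and 108 in naive and 224, 305, 251 and 178 in cast replicates 1 to 4. Naive replicates 1 to 3 were higher than every cast library, and naive replicate 4 was lower than each of them. With all libraries its log2 fold change was -0.21 (95% interval -1.11 to 0.68, adjusted p = 0.769 by limma), and without naive replicate 4 it was -0.66 (adjusted p = 0.0467). Tbx15, a T-box factor of limb mesenchyme and skin patterning, read 89.2, 105.5, 85.0 and 51.1 in naive and 93.4, 94.4, 87.0 and 95.6 in cast replicates. The cast libraries were tightly grouped at 92.6 ± 3.86 (SD, n = 4), inside the naive range (log2 fold change 0.21, adjusted p = 0.592). Per kb of exon, these 2 genes stood above 89.8% and 89.2% of the 15767 genes with a length.

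Tbx18 was the position gene whose cast libraries all lay above the naive ones, and it did not pass the test. This T-box factor, which is known for mesenchyme around joints, vessels and the ureter, read 25.5, 20.6, 19.7 and 12.3 in naive and 34.4, 36.4, 33.9 and 26.1 in cast replicates 1 to 4. The gap between naive replicate 1 and cast replicate 4 was small. Its log2 fold change was 0.75 (95% interval 0.23 to 1.27, adjusted p = 0.0671 by limma), and it passed in 5 of 21 alternatives, among them without naive replicate 4 (0.55, adjusted p = 0.0464). Exons of Tbx18 overlap an antisense gene over 20.6% of their length.

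Shox2, a homeodomain factor of the proximal limb, read 27.6, 40.01, 44.3 and 14.9 in naive and 15.2, 18.9, 17.9 and 18.3 in cast replicates 1 to 4. Naive replicates 1 to 3 exceeded every cast library, whereas naive replicate 4 was under all of them. The log2 fold change was -0.71 with all libraries (adjusted p = 0.178 by limma) and -1.02 without naive replicate 4 (adjusted p = 0.00595). With all 8 libraries it was called lower by DESeq2 and with array weights. Lmx1b, the LIM-homeodomain factor of the dorsal limb, was near the limit of detection, with 18 naive and 17 cast reads and values of 0.301 to 1.45 and 0.409 to 1.05 (adjusted p = 0.723).

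**Figure D3:**
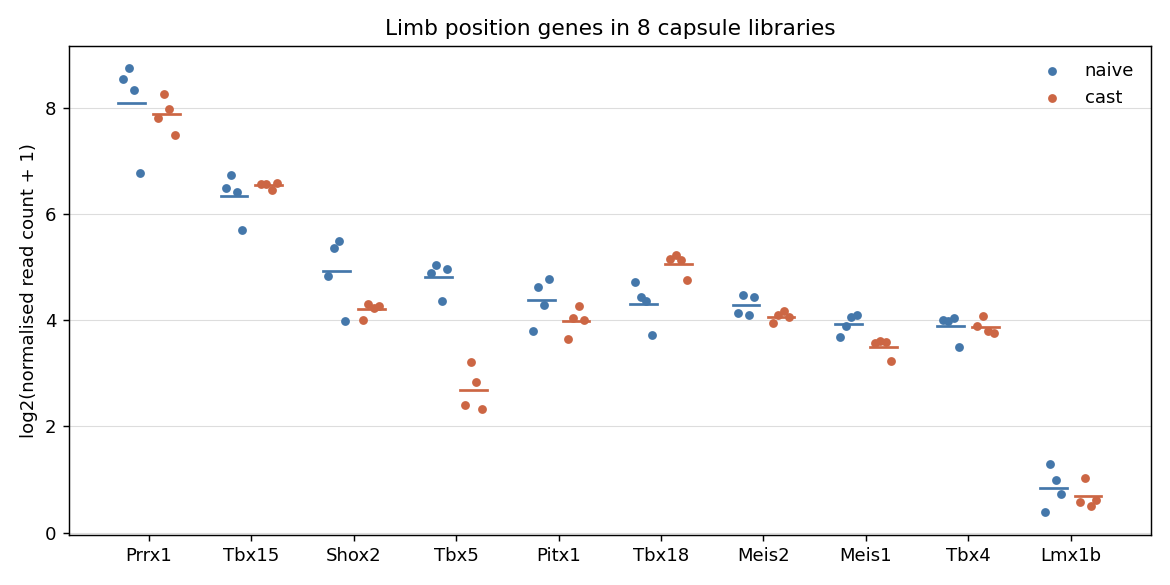
Log2 of the normalised read count plus 1 (vertical axis) for the 10 position genes, in order of their naive mean; points are libraries and bars are group means of 4. The groups of Tbx5 are far apart, and naive replicate 4 is the low naive point of Prrx1, Tbx15 and Shox2.

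Meis1 and Meis2 encode homeodomain partners of Hox and Pbx proteins. Meis1 read 11.9, 13.9, 15.7 and 16.2 in naive and 10.9, 11.2, 11.04 and 8.402 in cast replicates 1 to 4, so the groups were separate by a small gap. Its log2 fold change was -0.44 (95% interval -0.86 to -0.01, adjusted p = 0.178 by limma), and it was called in 0 of 21 alternatives. Meis2 read 16.6, 21.1, 16.2 and 20.7 in naive and 14.5, 16.2, 17.04 and 15.6 in cast replicates, with overlapping groups (log2 fold change -0.22, adjusted p = 0.477). Of 6 further Hox partners tested, 0 were called by limma, edgeR or DESeq2. An unadjusted limma p under 0.05 was reached by 2 of them, against 26.6% of all genes.

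Capsule Hox expression was led by the posterior genes Hoxa10 and Hoxc10 in both groups. Per kb of exon, Hox9 to Hox13 genes held 48.2 ± 1.96% of the summed Hox level in naive and 50.7 ± 4.67% in cast capsules (SD, n = 4 each). Hoxa10 was the highest Hox gene, at 13.6 ± 2.28 per kb in naive and 12.2 ± 2.38 in cast capsules, followed by Hoxc10 at 10.8 ± 3.78 and 8.07 ± 2.75. The first of these stood above 78.6% and the second above 70.9% of genes with a length. By mean level per kb over all libraries, Hoxd8, Hoxc6, Hoxc5 and Hoxd4 came next, above the posterior genes Hoxa9, Hoxd9 and Hoxc9. The Hoxb cluster gave 7.03 ± 1.35% of the naive and 9.91 ± 1.99% of the cast total, although 8 of its genes were listed. Hoxa13, a gene of hand and foot, gave 9 reads in all. It was at 0 in naive replicate 4 and cast replicates 3 and 4, where a count of 0 allows up to 3 reads, or values of 1.94, 0.409 and 0.4001.

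**Figure D4:**
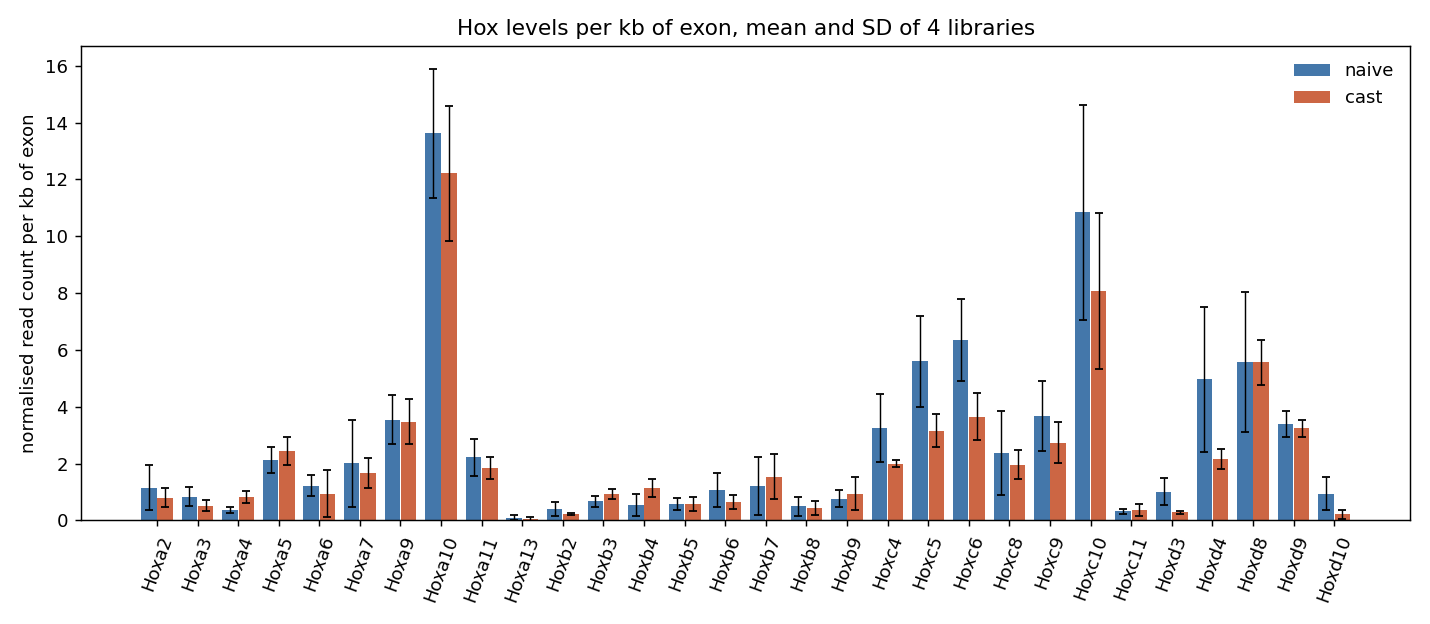
Normalised read count per kb of exon (vertical axis) for 30 Hox genes, grouped by cluster and ordered by paralog number; bars are means and error bars SD of 4 libraries. Hoxa10 and Hoxc10 are the tallest bars in both groups.

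The 5 most abundant posterior genes per kb had overlapping groups, and limma called 0 of them. Hoxa10 read 35.9, 52.9, 47.9 and 41.4 in naive and 30.8, 46.01, 36.1 and 46.8 in cast replicates 1 to 4 (log2 fold change -0.16, 95% interval -0.60 to 0.29). Hoxc10 read 18.1, 30.7, 20.5 and 13.6 in naive and 9.89, 22.3, 13.4 and 16.004 in cast replicates (-0.40, 95% interval -1.07 to 0.27). Both genes thus had a wide range within each group and overlapped between groups. Hoxa9 read 15.5, 21.3, 16.5 and 25.9 in naive and 17.1, 25.6, 15.5 and 19.1 in cast replicates (-0.03, 95% interval -0.54 to 0.48). Hoxc9 read 5.12, 8.39, 9.92 and 12.3 in naive and 7.58, 8.54, 4.64 and 5.87 in cast replicates (-0.35, 95% interval -0.99 to 0.29). Hoxd9 was the most even of these, at 7.53, 8.07, 7.61 and 5.82 in naive and 6.92, 7.79, 6.41 and 6.53 in cast replicates (-0.06, 95% interval -0.48 to 0.37). Their adjusted p values by limma ran from 0.438 for Hoxc10 to 0.949 for Hoxa9. Hoxa11 and Hoxc11, of the Hox11 group that patterns the shank, differed by -0.19 and 0.06 on the log2 scale (adjusted p = 0.677 for Hoxa11 and 0.903 for Hoxc11). The opposite strand of Hoxa11 carries Hoxa11os, which shares 35.0% of its exonic bases.

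**Figure D5:**
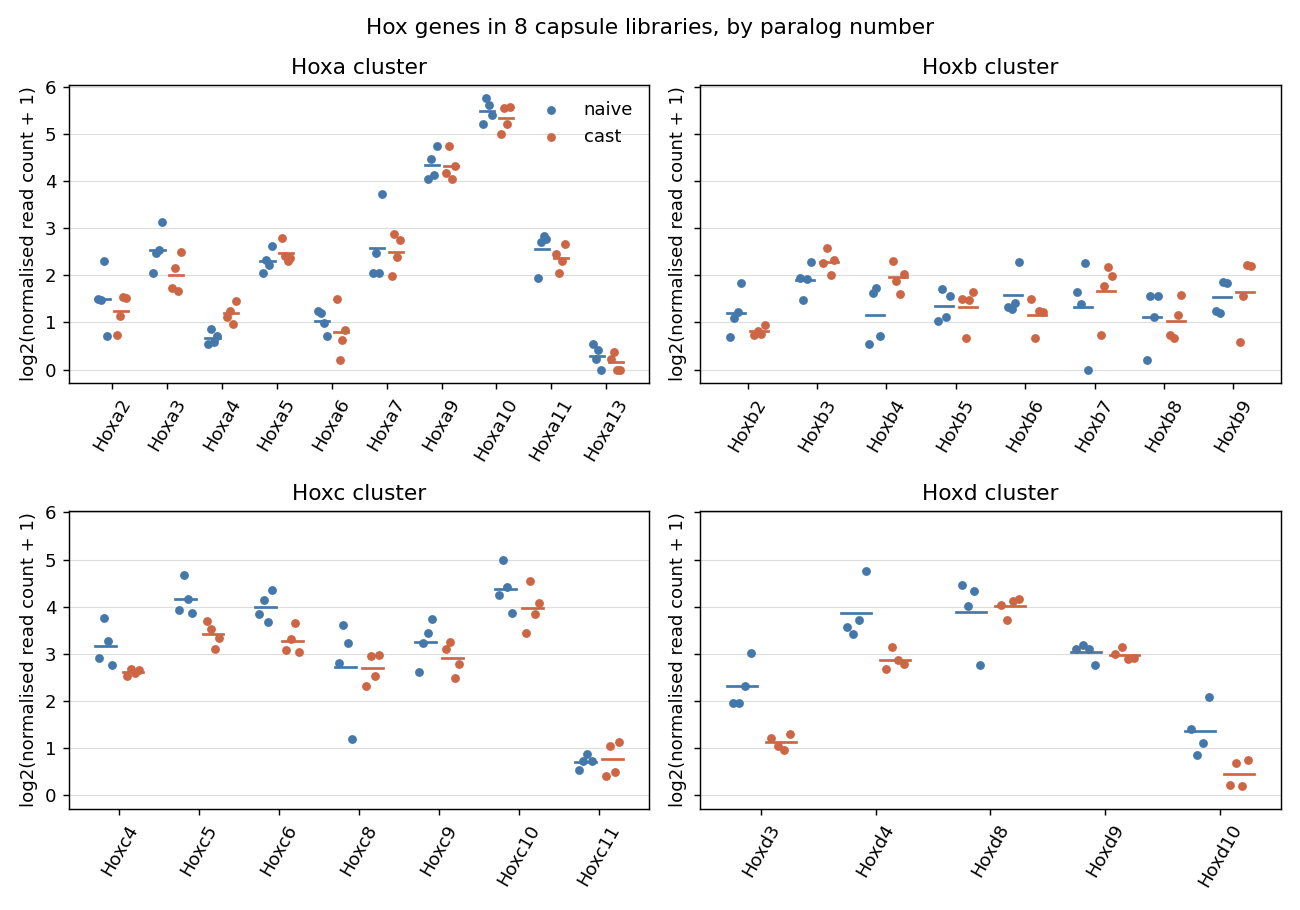
Log2 of the normalised read count plus 1 (vertical axis) for 30 Hox genes in 4 panels, 1 per cluster, ordered by paralog number; points are libraries and bars are group means of 4. Hoxd3, Hoxd4 and Hoxd10 and Hoxc4, Hoxc5 and Hoxc6 have every cast point under every naive point, as do 9.39% of all genes tested.

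In the Hoxd cluster, 3 of 5 tested genes had separate groups with cast lower, and limma called 1 of them, Hoxd3. Of all genes tested, 9.39% had separate groups with cast lower. The 3 genes were picked out by these values, and whether the cluster differs from other genes was not tested. The 5 listed Hoxd genes are neighbours on the plus strand of chromosome 2. Their order is Hoxd10, Hoxd9, Hoxd8, Hoxd3, Hoxd4 by the start of the windows below. Hoxd10, Hoxd3 and Hoxd4 had all cast values under all naive values, while Hoxd9 and Hoxd8, which lie between Hoxd10 and the other two, overlapped. The bases before their start sites are printed to show the cluster whose members differed in this way, with capitals for a match to AGGTGTGA, a T-box binding motif. They run 5′ to 3′ on the plus strand of GRCm38.p6, are credited to RefSeq, and leave out bases that GENCODE release M21 annotates as exon.
Hoxd10, chr2:74691641-74691890: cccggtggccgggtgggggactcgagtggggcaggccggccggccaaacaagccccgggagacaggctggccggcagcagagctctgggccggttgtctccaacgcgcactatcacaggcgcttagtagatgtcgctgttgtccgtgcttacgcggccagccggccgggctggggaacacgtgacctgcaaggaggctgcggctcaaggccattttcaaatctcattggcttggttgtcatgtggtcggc
Hoxd9, chr2:74697587-74697726: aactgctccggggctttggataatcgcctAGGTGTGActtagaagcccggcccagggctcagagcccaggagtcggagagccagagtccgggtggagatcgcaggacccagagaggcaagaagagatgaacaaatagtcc
Hoxd8, chr2:74704365-74704614: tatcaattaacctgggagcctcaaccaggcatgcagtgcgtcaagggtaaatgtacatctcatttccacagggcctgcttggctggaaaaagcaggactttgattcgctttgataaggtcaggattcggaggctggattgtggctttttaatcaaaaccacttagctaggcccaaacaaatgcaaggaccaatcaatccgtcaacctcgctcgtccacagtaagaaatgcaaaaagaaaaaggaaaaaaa
Hoxd3, chr2:74711743-74711926: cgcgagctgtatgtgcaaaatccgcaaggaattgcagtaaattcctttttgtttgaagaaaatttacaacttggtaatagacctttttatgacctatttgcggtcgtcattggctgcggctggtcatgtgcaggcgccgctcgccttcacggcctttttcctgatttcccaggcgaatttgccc
Hoxd4, chr2:74721728-74721977: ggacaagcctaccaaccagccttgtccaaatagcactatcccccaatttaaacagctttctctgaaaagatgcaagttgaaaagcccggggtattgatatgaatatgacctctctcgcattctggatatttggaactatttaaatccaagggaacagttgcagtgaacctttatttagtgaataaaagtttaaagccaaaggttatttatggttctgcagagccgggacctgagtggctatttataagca
A set of 4 motifs was searched on both strands in the 250 bases before the start of each gene: TGATNNAT for a Hox and Pbx pair, TAATTA for a homeodomain core, AGGTGTGA, and TGACAG for Meis. Of all 32851 windows of that length, 7.68%, 4.84%, 1.12% and 15.9% held them. Among the 5 Hoxd windows, that of Hoxd9 held AGGTGTGA once and no other match was found. A match is a description of the letters and not a binding site. GC content of the whole windows was 65.6% for Hoxd10, 65.2% for Hoxd9, 44.4% for Hoxd8, 49.2% for Hoxd3 and 40.4% for Hoxd4, against a median of 52.4% over all windows. Windows were found for 24 of 41 members.

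Hoxd3 was the Hox gene that passed the test. It read 2.86, 2.904, 3.97 and 7.12 in naive and 1.32, 1.05, 0.954 and 1.47 in cast replicates 1 to 4, from 72 and 33 reads. The means were 4.21 ± 2.002 and 1.197 ± 0.237 (SD, n = 4 each). Every naive library was above every cast library, and naive replicate 4 was the highest of all. The log2 fold change was -1.18 (standard error 0.27, 95% interval -1.80 to -0.57, adjusted p = 0.0227 by limma), a 2.27-fold lower fitted level on the log2(value + 1) scale. Over the 21 alternatives it ranged from -1.69 with DESeq2 to -0.55 with a pseudocount of 5. Leaving out 1 library ended this call in 3 cases: adjusted p was 0.0603 without naive replicate 3, 0.0640 when cast replicate 2 was dropped and 0.0734 when cast replicate 3 was dropped. It was 0.0137 without naive replicate 4. Leaving out both cast replicates 1 and 2, chosen after seeing the data because they held marrow precursor transcripts, gave an adjusted p of 0.135.

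Hoxd4 read 10.8, 9.68, 12.1 and 25.9 in naive and 5.44, 7.79, 6.27 and 5.87 in cast replicates 1 to 4. Naive replicate 4 was more than double the next naive library, and the groups were separate without it too. The log2 fold change was -0.99 (95% interval -1.66 to -0.32, adjusted p = 0.0603 by limma), and Hoxd4 was called lower in 6 of 21 alternatives, among them without naive replicate 4 (-0.70, adjusted p = 0.0312) and with edgeR on reads (-1.11, adjusted p = 0.0415). On the same strand, Gm28230 shares 2225 exonic bases with Hoxd3 (53.1%) and 1154 with Hoxd4 (39.1%). Hoxd3 and Hoxd4 share 388 with each other, and each shares 347 with Hoxd3os1 on the opposite strand, so the split of reads among these genes is uncertain. Hoxd10, named after its values were seen, had 28 naive and 11 cast reads, with values of 0.807 to 3.23 and 0.136 to 0.667 (log2 fold change -0.91, adjusted p = 0.0823). Hoxd8 read 21.1, 15.2, 19.0 and 5.82 in naive and 15.5, 12.1, 16.5 and 16.9 in cast replicates, and the low value was again naive replicate 4. Its log2 fold change was 0.12 (95% interval -0.67 to 0.91, adjusted p = 0.861 by limma). It was below 0 without naive replicate 4 (-0.25) and with quantile normalisation, edgeR, DESeq2 and array weights.

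In the Hoxc cluster on chromosome 15, the neighbours Hoxc4, Hoxc5 and Hoxc6 also had separate groups with cast lower. Limma with all 8 libraries called 0 of the 3. They were 3 of 7 tested Hoxc genes, against 9.39% of all genes tested with such groups. These genes too were picked out by their values, and whether the cluster differs from other genes was not tested. Hoxc6 read 13.3, 16.8, 11.7 and 19.4 in naive and 7.42, 8.99, 11.6 and 7.202 in cast replicates 1 to 4, so that naive replicate 3 and cast replicate 3 were almost equal. Hoxc5 read 14.2, 24.4, 17.03 and 13.6 in naive and 11.9, 10.5, 7.64 and 9.07 in cast replicates. Their log2 fold changes were -0.73 and -0.74 (adjusted p = 0.0704 and 0.0708 by limma). Hoxc4 read 6.48, 12.6, 8.598 and 5.82 in naive and 4.78, 5.395, 5.04 and 5.33 in cast replicates, with cast libraries much less spread than naive ones (log2 fold change -0.56, adjusted p = 0.183). Hoxc5 was called lower in 5 of 21 alternatives, Hoxc6 in 3 and Hoxc4 in 1. Exons of Hoxc5 share 166 bases with Hoxc10 on the same strand. Hoxc8, Hoxc9, Hoxc10 and Hoxc11 had overlapping groups.

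Summed per kb over 10 Hox4, Hox5 and Hox6 genes, naive capsules had a level of 26.1 ± 4.54 and cast capsules of 17.5 ± 1.44 (SD, n = 4 each). Over the 10 listed genes of Hox9 and above the levels were 39.4 ± 6.27 and 33.1 ± 6.48. Of the first set 10 genes were tested, with a median log2 fold change of -0.33, and of the second 9, with a median of -0.16. Hox1 to Hox3 genes summed to 4.41 ± 1.02 and 3.13 ± 0.597, with a median of -0.33 over 6 tested. Hox7 and Hox8 genes summed to 11.7 ± 2.79 and 11.2 ± 1.90, with a median of -0.02 over 5 tested. Whether the classes differ was not tested.

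The remaining genes of the Hoxa and Hoxb clusters had low values in both groups. Of 10 tested Hoxa and 8 tested Hoxb genes, limma called 0 in either direction, and edgeR and DESeq2 also called 0. In each cluster 1 gene had an unadjusted limma p under 0.05, against 26.6% of all genes. A pair of genes named after their values were seen had higher values after casting without passing. Hoxa4 read 0.452 to 0.807 in naive and 0.954 to 1.73 in cast libraries, from 12 and 36 reads (log2 fold change 0.52, adjusted p = 0.147). Hoxb4 read 0.452, 2.10, 2.31 and 0.647 in naive and 3.96, 2.70, 2.05 and 3.07 in cast replicates 1 to 4, with overlapping groups (0.80, adjusted p = 0.147). Hoxa9 and Meis1 are also known from blood precursors. The 5 marrow precursor markers summed to 97.9 and 262 in cast replicates 1 and 2, to 8.18 and 12.5 in cast replicates 3 and 4 and to 3.64 to 12.3 in naive libraries. Their part in the values of these 2 genes was not tested. Of the 41 members, 12 had under 100 reads over all 8 libraries, and their values are the least precise. A further 15 tested Hox genes (Hoxa2, Hoxa3, Hoxa5, Hoxa6, Hoxa7, Hoxa11, Hoxb2, Hoxb3, Hoxb5 to Hoxb9, Hoxc8 and Hoxc11) had naive means of 0.643 to 6.72 and cast means of 0.747 to 5.57. Hox genes that were called or had separate groups are described above, so overlapping groups in all 15 follow from this choice. Their log2 fold changes ran from -0.53 to 0.38, with adjusted p values by limma of 0.284 to 0.980. Exons of Hoxb3 share 52.9% of their bases with Hoxb3os on the opposite strand.

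Chromatin regulators of Hox genes and other limb genes were read from lists of genes chosen by their known roles. Of 24 Polycomb and Trithorax group genes, which keep Hox genes silent or active, 0 were called by limma, edgeR or DESeq2 (median log2 fold change 0.19). An unadjusted limma p under 0.05 was reached by 4 of them, against 26.6% of all genes. Of 18 noncoding RNAs of the clusters 6 were listed and 3 tested. Here too the 3 tools called 0, and 1 gene had an unadjusted limma p under 0.05. Of 41 limb patterning genes 27 were tested, and 2 rose and 1 fell (median -0.12). Of all genes tested, 6.51% were called higher and 5.46% lower, so these counts are near the background. Prrx2, the paralog of Prrx1, rose from 19.4, 12.9, 9.92 and 12.3 to 30.8, 36.1, 44.6 and 29.7 in replicates 1 to 4 (log2 fold change 1.33, adjusted p = 0.00705 by limma), and its groups were separate. Msx1, a homeodomain factor of the distal limb bud, fell from 7.68, 11.8, 8.76 and 16.2 to 2.14, 4.796, 4.91 and 4.27 (-1.26, adjusted p = 0.0240). Aldh1a2, an enzyme that makes retinoic acid, a known inducer of Hox genes, was 12.8, 10.002, 6.12 and 9.702 in naive and 10.5, 85.3, 78.8 and 39.6 in cast replicates (2.03, adjusted p = 0.0475), and cast replicate 1 lay among the naive libraries. The call of Prrx2 was lost only when cast replicates 1 and 2 were both left out (adjusted p = 0.0571). Msx1 did not pass without naive replicate 2 (adjusted p = 0.0697), when cast replicate 3 was dropped (0.0505) or without both cast replicates 1 and 2 (0.126). That of Aldh1a2 was lost in 9 of 21 alternatives, 6 of which left out naive replicate 1, 2 or 3 or cast replicate 2, 3 or 4 (adjusted p between 0.0687 and 0.134). The other alternatives that ended it were quantile normalisation (0.0525), the replicate block (0.0845) and the muscle covariate, where its log2 fold change was 0.84 (adjusted p = 0.423).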

How the data were processed

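RNA of the posterior knee capsule was sequenced in 8 libraries, 4 per group. Per the labels' protocols, directional libraries were made from 200 ng of RNA after depletion of ribosomal RNA and read as 150-nt pairs. The protocol names Trimmomatic 0.38 and the human build hg38, whereas mouse build mm10, Trimmomatic 0.36, RSEM, Bowtie2 and edgeR stand in the submitters' processing notes. The table holds mouse symbols, which go with mm10 rather than hg38, although these sources conflict. Use of strand in counting is not given in the sources used here. What the authors deposited is a signal, the normalised read count of each gene in each library. Each value was a whole multiple of its library's smallest value within 0.01 for 100% of genes, so whole reads could be recovered. Recovered reads ranged from 1503880 to 7381255 per library. Floors cover counting error only, and intervals of fold changes are limma's, from the spread among libraries.

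Values plus 1 were taken to log2, genes whose mean value fell under 0.5 were dropped, and groups were compared with limma-trend and Benjamini-Hochberg adjustment at 0.05 over 15120 genes (R 4.3.3, limma 3.58.1). The alternatives were pseudocounts, filters, scalings, array weights, a muscle covariate, a replicate block, libraries left out in turn, and edgeR 4.0.16 and DESeq2 1.42.0 on recovered reads. Code was tested on simulated data. Genes described with values were those past the threshold, the 10 position genes, the 10 Hox genes highest per kb, and at most 4 called genes of each list. The members and lists were chosen with earlier results of these data known. Some items are not reported here. Coordinates and joined exon lengths are from GENCODE release M21 (GRCm38). Tables and plots were made in Python 3.11.15.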

Additional observations from a re-analysis of the deposited data

Results flagged for a closer look

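In 54 groups of 4 values, for 27 genes, 3 had a library far from the other three by Dixon's test at the 95% level, where chance flags about 1 in 20. In naive replicate 4, Tbx4 was low at 10.3 and Hoxd4 was high at 25.9. In cast replicate 4, Meis1 was low at 8.402.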

How the results depend on the processing

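Tbx5 kept its direction and its call in all 21 alternatives. Members called lower, 2 with all libraries, numbered 5 with quantile normalisation, 4 with edgeR, 6 with DESeq2, 7 each with array weights and the muscle covariate and 1 without cast replicates 1 and 2 together. Members called higher, 0 in the reported fit, numbered 1 each with DESeq2, array weights and scaling that leaves out tissue genes (muscle, erythroid, marrow) and 2 with the muscle covariate. Leaving out each library gave 1 to 6 lower and 0 to 1 higher members, with 510 to 1382 genes higher and 406 to 1283 lower in all. Over all genes, 984 higher and 826 lower became 2168 and 1817 with array weights, 2678 and 1323 with the muscle covariate, and 374 and 343 without cast replicates 1 and 2, and DESeq2 called 1290 lower. The median of the position genes was -0.36 with quantile normalisation, -0.38 with edgeR and -0.39 with DESeq2. The muscle covariate moved the median of all genes to 0.11 and scaling without tissue genes to 0.10, from 0.07. The causes were not tested.

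Of members that did not pass, some changed sign. Hoxd8 was -0.0335 with quantile normalisation, -0.0626 with edgeR, -0.0596 with DESeq2 and -0.25 with array weights. Hoxa9 was 0.0087 with scaling without tissue genes, 0.0021 with edgeR and 0.10 with array weights. Tbx4 was 0.0335 with that scaling and 0.27 with the muscle covariate, where Prrx1 was 0.63 and Hoxd9 0.13. Leaving out single libraries gave ranges of -0.13 to 0.0506 for Tbx4, -0.0042 to 0.34 for Tbx15, -0.66 to 0.0029 for Prrx1, -0.25 to 0.31 for Hoxd8 and -0.17 to 0.10 for Hoxa9. With the replicate number as a block, 782 genes were higher and 589 lower and the same 2 members were called, while Aldh1a2 lost its call (adjusted p = 0.0845). Deviations of same-numbered libraries correlated at -0.0571 to 0.0797, and not every library correlated best with its own number, so the numbers do not show a pairing.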
